A study of Arabidopsis thaliana with 6 samples.

Results

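The genes described are those of cell division and the mitotic cytoskeleton in cultured Arabidopsis thaliana cells (ecotype Ler). Members were chosen by symbol alone, as probe sets annotated to 1 gene whose symbol begins with any of 15 prefixes for cyclins, cyclin-dependent kinases, replication licensing proteins, Aurora kinases, core histones and tubulins. The rule found 16 of 13513 single-gene probe sets. They are the Aurora kinase genes AUR1, AUR2 and AUR3, the anaphase-promoting complex gene CDC27a, the histone H2B genes HTB1, HTB2, HTB4 and HTB11, the centromeric histone H3 gene HTR12, the alpha-tubulin genes TUA1 and TUA6, and the beta-tubulin genes TUB1, TUB5, TUB6, TUB7 and TUB9. No single-gene probe set used here had a symbol beginning with the other 9 prefixes (cyclins A, B and D, CDKA, CDKB, MCM, ORC, KRP and histone H2A), so the label of a replication module rests on none of its licensing genes, and the members are named by their families below.

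RNA was hybridised to ATH1 arrays, which read each gene with a set of short probes, and there was 1 array for each of 6 conditions. The day 0 callus came from leaves of seedlings aged 14 to 17 days, kept for 2 weeks in darkness at 22 °C on medium with 2.0% glucose, 0.5 mg/l of the auxin 2,4-D and 0.05 mg/l of the cytokinin kinetin. High differentiating medium, sampled on days 2, 5 and 9 on a shaker at 105 rpm, contained 0.2% sucrose, 4% mannitol, auxins at 0.2 mg/l (2,4-D, NAA and IAA) and the cytokinin BA at 1 mg/l. Low differentiating medium, shaken alike and sampled on days 5 and 9, kept the sucrose and the mannitol but held 2,4-D at 0.5 mg/l and kinetin at 1.5 µg/l. All liquid cultures were of the same ecotype. With a single array per condition no difference below has a replicate check, and no p-value is given.

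Plant cells divide under the control of cyclin-dependent kinases. Core histones are made in bulk while DNA is replicated, and their transcripts are known to peak in S phase. Aurora kinases phosphorylate histone H3 and act at the spindle, the centromeres and the forming cell plate, with transcripts that peak around mitosis. Tubulins assemble as alpha and beta pairs into the microtubules of the spindle and phragmoplast, and also into the cortical arrays that guide wall deposition in cells that no longer divide.

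Values are intensities on a linear scale, and intensities of different genes are not compared because each probe set has its own response. A floor was set at an intensity of 24.7. A log2 ratio with 1 array below it is a bound, and no ratio is given where both arrays lie below it. Of the 16 members, 12 read above the floor on all 6 arrays, 3 on some arrays (CDC27a, HTR12 and TUB5), and TUB1 on none. Arrays had been scaled alike, with trimmed means of 99.2 to 99.4. The GAPDH control probes gave a 3' over 5' ratio of 1.06 to 1.15 on the liquid culture arrays, beside 0.969 in callus. The average scan background was 74.0 to 105 on the liquid culture arrays, highest in low medium on day 5, and 69.0 in callus. These measures moved with the comparison against callus, and their part in the results was not tested. The annotation used gave a single-gene probe set to 2 of 8 callus, 1 of 6 leaf mesophyll and 0 of 7 tracheary element marker genes. A gene without one may still be on the array. The callus marker LBD16 read 89.8 to 170 in the liquid cultures and 136.5 in callus, and the other, LBD29, lay below the floor on every array.

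No member was called at 2-fold in any of the 7 comparisons, with values below the floor raised to it. Against callus, 0 of 16 members were called at 2-fold in high medium on days 2, 5 and 9 and in low medium on days 5 and 9, where 3.24%, 4.24%, 3.11%, 4.37% and 2.76% of all 22746 probe sets were called. Between high and low medium, 0 of 16 were called on either day, where the shares over all probe sets were 1.16% on day 5 and 0.413% on day 9. TUB5 was held at the floor in 4 liquid cultures, so its size there is not bounded from above. With a floor at the 20th percentile its log2 ratios over callus were -1.27 in high medium on day 9, and -1.04 and -1.16 in low medium on days 5 and 9, all past 2-fold. Whether any difference below exceeds the variation between cultures cannot be said from single arrays.

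At 1.5-fold, all members called were lower in liquid culture than in callus. They numbered 4 of 16 in high medium on day 5 (AUR1, AUR3, HTB1 and TUB5), where 8.28% of all probe sets were called lower, and 2 of 16 on day 9 (HTB1 and TUB5), against 6.6%. In low medium they were 3 of 16 on day 5 (AUR2, TUB5 and TUB9), against 8.04%, and 2 of 16 on day 9 (AUR2 and TUB5), against 5.76%. In high medium on day 2 the count was 0 of 16, against 6.15%. Of the members, 13 have a mean above the floor, and TUB5 is not among them. Of all probe sets with such a mean, 9.65%, 13.1% and 10.3% were called lower in high medium on days 2, 5 and 9. The shares in low medium were 12.7% on day 5 and 8.94% on day 9. The count of members at least 1.5-fold higher was 0 of 16 in every liquid culture. Of all probe sets, 4.81%, 6.19% and 5.09% were called higher in high medium on days 2, 5 and 9. In low medium 6.67% and 4.54% were, on days 5 and 9. Of those with a mean above the floor, 7.82%, 10.1%, 8.41%, 10.9% and 7.53% were called higher, in the same order. The count of 4 became 2 with array medians made equal or with the floor raised to the 60th percentile, and at that floor the low medium counts became 1 and 0 and the day 9 count in high medium 1. With the floor lowered to the 20th percentile the counts were 1, 5 and 3 in high medium on days 2, 5 and 9, and 4 and 3 in low medium on days 5 and 9. Shares over all probe sets with equal medians or with either changed floor are not given. The 5 comparisons share the single callus array. RNA was taken from whole cultures, so fewer dividing cells and less transcript per cell cannot be told apart.

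More members read lower than higher against callus, by some amount. In high medium 12 of 16 members read lower on day 2, 12 on day 5 and 11 on day 9, where 33.9%, 33.8% and 32.9% of all probe sets did. In low medium 10 of 16 read lower on day 5 and 10 on day 9, where 32.9% and 32.5% of all probe sets did. Many probe sets lie at the floor on both arrays, and these enter counts and medians, also those of the members, as no difference. Among the 13685 with a mean above the floor, 52.9%, 52.7% and 51.1% read lower in high medium on days 2, 5 and 9, and 51.1% and 50.5% in low medium on days 5 and 9. The median log2 ratio of the 16 members was -0.21, -0.33 and -0.33 in high medium on days 2, 5 and 9, and -0.29 and -0.18 in low medium on days 5 and 9. The median over all probe sets was 0.00 in each comparison, and over those with a mean above the floor it ran from -0.03 to -0.01. Both the counts and the medians of the members depended on the floor. With the floor raised to the 60th percentile, 9, 9 and 8 of 16 read lower in high medium and 7 on each day in low medium. The members' median log2 ratio was then -0.04, -0.21 and -0.09 for the 3 high medium arrays by day, and 0.00 for both arrays of low medium. Over probe sets with a mean above the main floor the median was then 0.00 in each comparison. The share of all probe sets reading lower at the raised floor is not given. With array medians made equal the members' median was -0.12 in high medium on day 2 and -0.11 in low medium on day 9. Over the probe sets with a mean above the main floor it was 0.05 and 0.06.

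**Figure D1:**
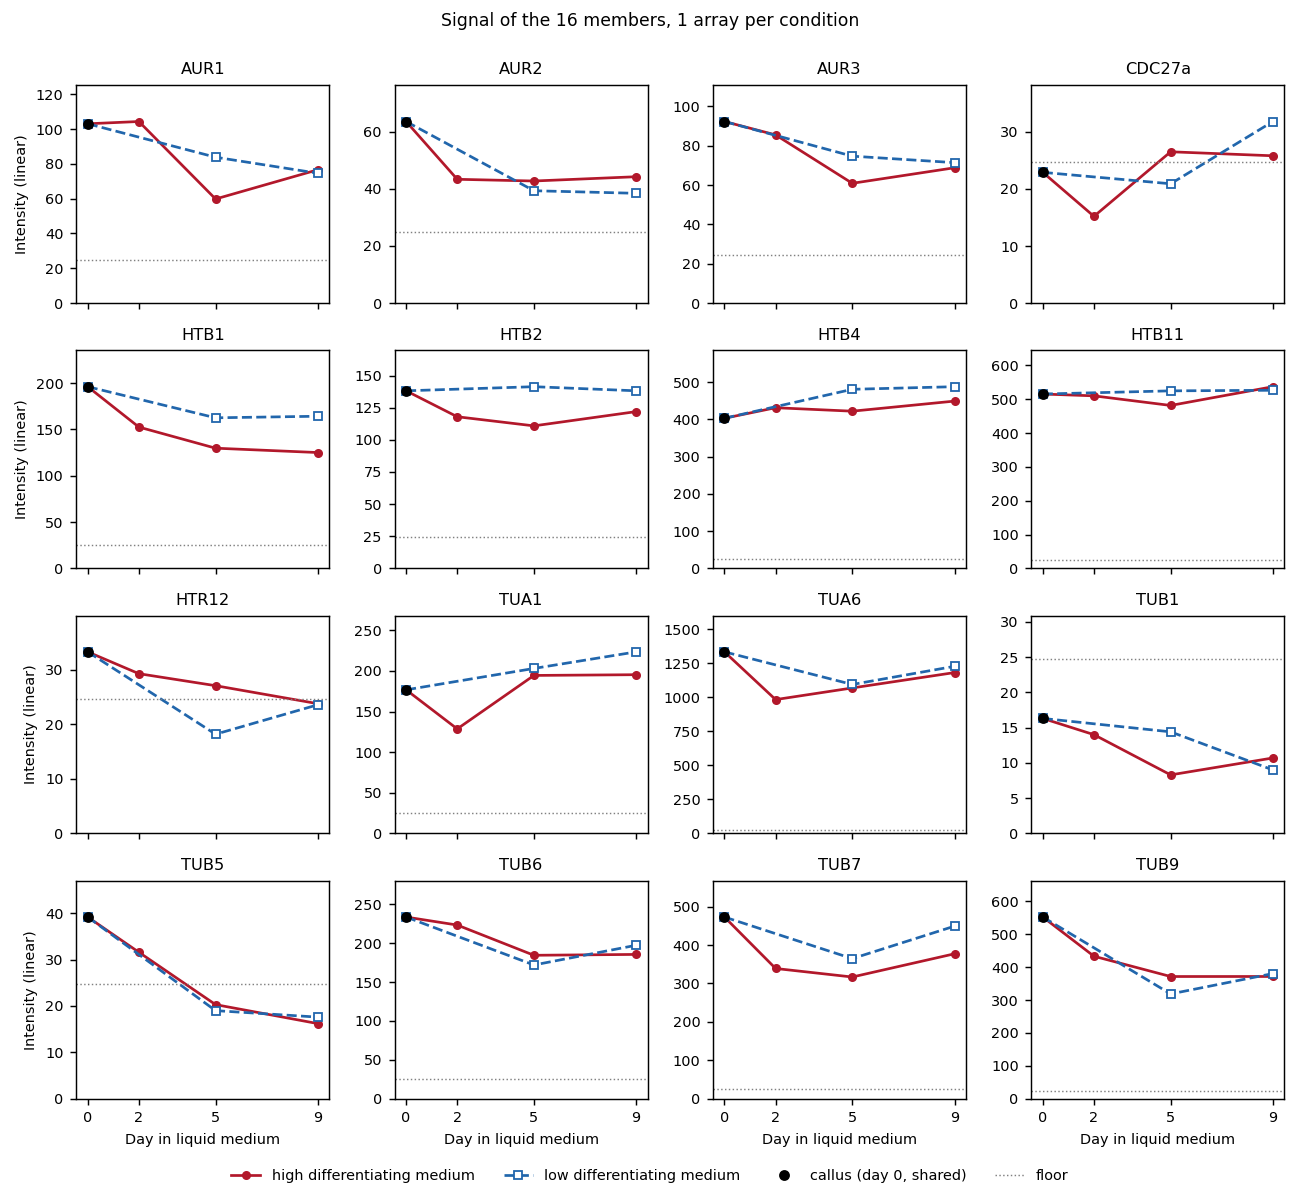
Intensity (linear scale, each vertical axis starting at 0) of the 16 members against day, with filled red circles for high medium, open blue squares for low medium, a black point for the shared callus array and a dotted line at the floor; each point is 1 array and there are no error bars. The Aurora genes, HTB1, HTR12, TUA6, TUB5, TUB6, TUB7 and TUB9 lie below their callus value on days 5 and 9 in both media. HTB4 and TUA1 lie above it on those days, HTB11 stays within 482 to 537, and TUB1 lies under the floor throughout.

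All 3 Aurora kinase genes read lower than in callus on days 5 and 9 in both media. Their median log2 ratio over callus was -0.60 and -0.43 in high medium on those days, and -0.31 and -0.47 in low medium. AUR1, a kinase of the spindle and cell plate, read 103 in callus and 104, 59.8 and 76.6 in high medium on days 2, 5 and 9. In low medium AUR1 read 83.8 on day 5 and 74.6 on day 9. AUR1 was thus at its callus level on day 2, lowest in high medium on day 5 and intermediate on the 3 remaining arrays. Its value on day 5 in high medium was 1.74-fold below that on day 2, a log2 ratio of -0.80.

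AUR3, whose protein is known from centromeric regions, had a like course. It read 92.3 in callus and 85.5, 60.9 and 68.8 in high medium on days 2, 5 and 9, and 74.7 and 71.4 in low medium on days 5 and 9. Its log2 ratio over callus was -0.11 on day 2, -0.60 on day 5 and -0.42 on day 9 in high medium. AUR2, a close relative of AUR1, differed from both in timing. It read 63.5 in callus and 43.3, 42.7 and 44.2 in high medium, with 39.3 and 38.4 in low medium, so all 5 liquid cultures lay between 38.4 and 44.2. Its log2 ratio over callus was already -0.55 on day 2 and reached -0.73 in low medium on day 9. With the floor raised to the 60th percentile all arrays lie below it for AUR2, which then gives no ratio.

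CDC27a encodes a subunit of the anaphase-promoting complex, the ubiquitin ligase that ends mitosis. It read 22.9 in callus, 15.2, 26.5 and 25.8 in high medium on days 2, 5 and 9, and 20.9 and 31.8 in low medium on days 5 and 9. Its values straddled the floor, and in low medium on day 9 its log2 ratio over callus was at least 0.36. HBT, which RefSeq also lists as CDC27b and which encodes the paralogous subunit, read 98.8 in callus, 103, 84.7 and 96.1 in high medium and 92.6 and 112.9 in low medium. The log2 ratios of HBT over callus lay between -0.22 and 0.19.

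The H2B genes did not move as a family. HTB1 read 196 in callus, 152.5, 130 and 125 in high medium on days 2, 5 and 9, and 162.5 and 164 in low medium on days 5 and 9. The callus value was the highest and each day of high medium read below both days of low medium. Its log2 ratios over callus were -0.36, -0.60 and -0.65 in high medium and -0.27 and -0.26 in low medium. HTB2 read 138 in callus, 118, 111 and 122 in high medium, and 141 and 138 in low medium. Low medium was thus level with callus for HTB2, and the 3 high medium arrays lay below it by log2 ratios of -0.23, -0.32 and -0.18.

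HTB4 and HTB11 encode the same core histone but gave other profiles. HTB4 read 403 in callus, 431, 422 and 449 in high medium, and 481 and 488 in low medium, so callus was its lowest array. Its log2 ratio over callus was 0.25 on day 5 and 0.28 on day 9 in low medium. HTB11 read 516 in callus, 510, 482 and 537 in high medium and 525 and 527 in low medium, a range of 1.12-fold over all 6 arrays. On day 5 in high medium the log2 ratios over callus of the 4 H2B genes therefore ran from -0.60 for HTB1 to 0.07 for HTB4. Paralogs of H2B are close in sequence, and how far each probe set also reads the other copies was not tested.

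HTR12, the centromeric histone H3 variant that marks sites of kinetochore assembly, was near the floor. It read 33.3 in callus, 29.3, 27.1 and 23.8 in high medium on days 2, 5 and 9, and 18.2 and 23.6 in low medium on days 5 and 9. Callus was its highest array. The log2 ratio over callus was -0.18 on day 2 and -0.30 on day 5 in high medium, and at most -0.43 on the other 3 arrays, which lay below the floor.

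**Figure D2:**
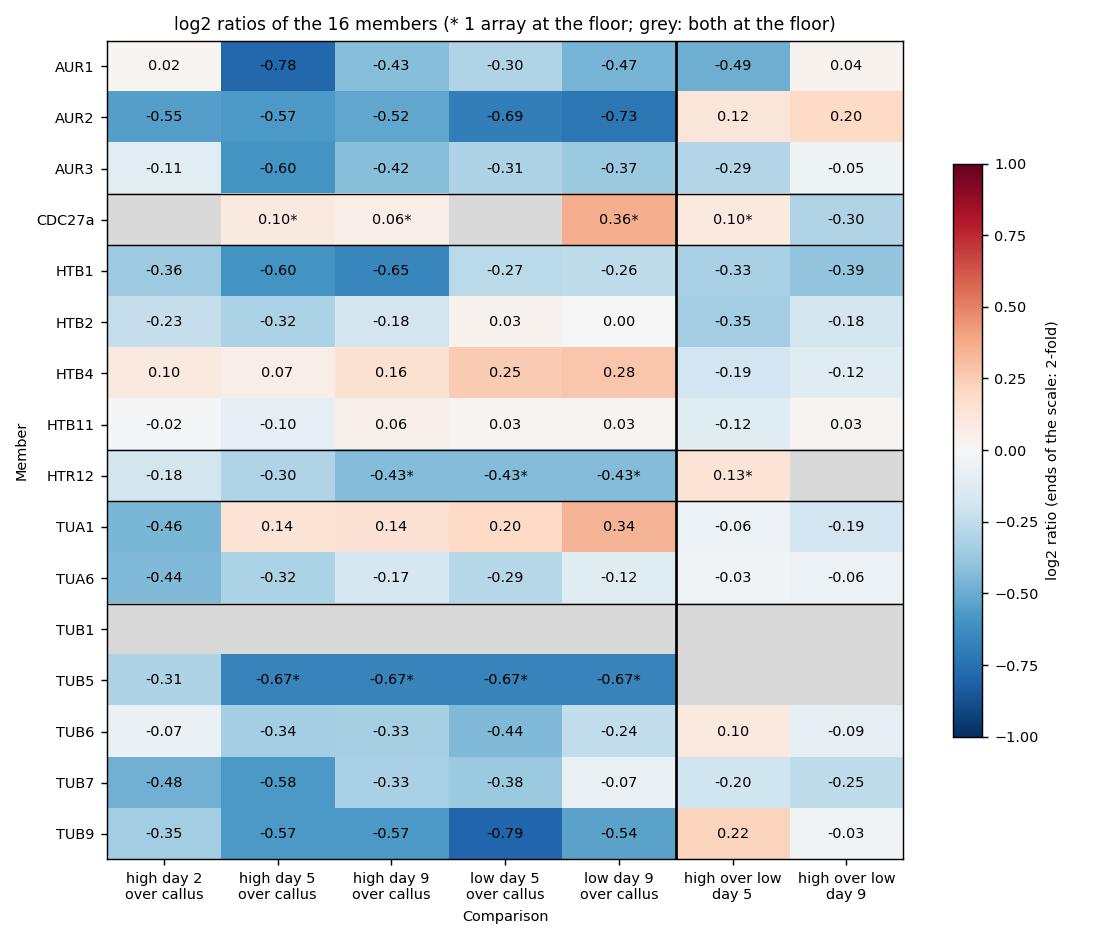
log2 ratios of the 16 members (rows, grouped by family) in the 7 comparisons (columns), coloured from blue (lower) to red (higher) with the ends of the scale at 2-fold. A star marks a ratio with 1 array at the floor, given as the value at the floor, and grey cells have both arrays at the floor; the lowest value shown is -0.79, for TUB9 in low medium on day 5 over callus.

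Among the tubulins, both alpha-tubulin genes read lower on day 2 in high medium and then parted. TUA6 read 1333 in callus and 983, 1068 and 1181 in high medium on days 2, 5 and 9, with 1094 and 1227 in low medium on days 5 and 9. Its log2 ratio over callus was -0.44 on day 2, -0.32 on day 5 and -0.17 on day 9, so day 2 was its lowest array. A probe set shared by a pair of other alpha-tubulin genes, which is not a member, had log2 ratios of -0.45, -0.34 and -0.25 at the same times. TUA1, known for expression in pollen, read 177 in callus and 129, 194.5 and 195 in high medium, with 203 and 223.5 in low medium. After a log2 ratio of -0.46 on day 2 it lay above callus on all later arrays, by 0.14 to 0.34. Its step from day 2 to day 5 in high medium was 0.60 on the log2 scale, and it was the only member called at least 1.5-fold higher in that step, where 3.49% of all probe sets were called higher. AUR1 was the only member called at least 1.5-fold lower in it, where 3.31% were.

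The beta-tubulins read lower than in callus wherever they had a ratio. TUB9 read 552 in callus, 433, 371.5 and 372 in high medium on days 2, 5 and 9, and 318.5 and 380.5 in low medium on days 5 and 9. All 5 liquid cultures lay below callus, and the lowest value, in low medium on day 5, was 1.73-fold below it. TUB7 read 473 in callus, 339, 317 and 377 in high medium, and 365 and 449 in low medium. It was lowest on day 5 in high medium, at a log2 ratio of -0.58, and nearest to callus in low medium on day 9, at -0.07.

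TUB6 read 234 in callus, 223, 184.5 and 186 in high medium, and 172 and 197 in low medium. Its log2 ratio was -0.07 on day 2 and -0.34 on day 5 in high medium, so TUB6 was close to callus at a time when TUB7 and TUB9 had ratios of -0.48 and -0.35. TUB5 read 39.2 in callus, 31.6, 20.3 and 16.2 in high medium, and 19.0 and 17.6 in low medium. It lay below the floor on days 5 and 9 in both media, so its log2 ratio there was at most -0.67. TUB1 read 8.3 to 14.4 in the liquid cultures and 16.3 in callus, all below the floor, and gave no ratio.

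**Figure D3:**
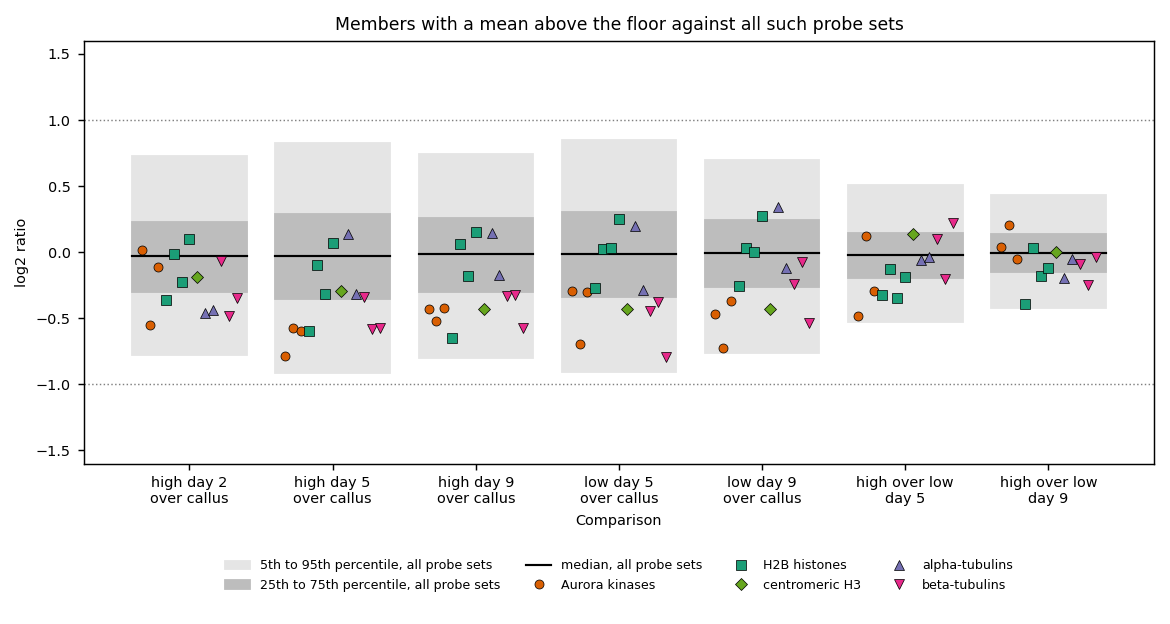
log2 ratios of the 13 members with a mean above the floor (symbols by family) in the 7 comparisons, over grey boxes for the 5th to 95th and 25th to 75th percentiles of the 13685 probe sets with a mean above the floor and a black line at their median; values at the floor enter as the floor. Members lie mostly in the lower part of the boxes against callus. On day 9 between media they lie on both sides of the median, more of them below it, from -0.39 for HTB1 to 0.20 for AUR2. No member passes the dotted lines at 2-fold.

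The comparison of media asked whether the culture conditions differed at matched times. On day 5, 9 of 16 members read lower in high than in low medium, with a median log2 ratio of -0.05. On day 9, 10 of 16 did, also with a median of -0.05. Over all probe sets, 34.4% read lower on day 5 and 31.5% on day 9, and of those with a mean above the floor 53.7% and 50.4% did. No member was called at 1.5-fold between media, where 2.38% of all probe sets were called lower and 2.45% higher on day 5, and 1.2% and 1.4% on day 9.

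The H2B genes all read lower in high than in low medium on day 5. Their log2 ratios of high over low were -0.33 for HTB1, -0.35 for HTB2, -0.19 for HTB4 and -0.12 for HTB11, with a median of -0.26 on day 5 and -0.15 on day 9. HTB1 read 130 in high and 162.5 in low medium on day 5, and 125 in high and 164 in low medium on day 9. On day 9 its ratio of -0.39 was the lowest of any member. AUR1 read 59.8 in high and 83.8 in low medium on day 5, a log2 ratio of -0.49, but 76.6 and 74.6 on day 9, a log2 ratio of 0.04. TUB7 had log2 ratios of -0.20 and -0.25, while those of TUB9 were 0.22 and -0.03. The low medium array of day 5 carried the highest scan background, and the part of this in the day 5 ratios was not tested.

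After day 5 the median log2 ratios of the Aurora, H2B and beta-tubulin families lay between -0.07 and 0.20. From day 5 to day 9 in high medium the median log2 ratio was 0.18 for the Aurora kinases, 0.11 for H2B and 0.00 for the beta-tubulins. In low medium the same step had medians of -0.07, 0.01 and 0.20. The beta-tubulin medians include TUB1 and TUB5, which lay below the floor on both days. In low medium TUB6, TUB7 and TUB9 had log2 ratios of 0.20, 0.30 and 0.26 in this step. No member was called at 1.5-fold in either step, where 1.87% of all probe sets were called higher and 2.18% lower in high medium, and 1.57% and 2.21% in low medium. AUR1 had a log2 ratio of 0.36 in this step in high medium and -0.17 in low medium.

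Further genes of the same processes were taken from 5 lists of 90 loci, of which 11 had a single-gene probe set in the annotation used. That annotation gives 1 gene to 13513 and several genes to 503 of the 22810 probe sets. A locus without a single-gene probe set there may still be on the array. In high medium on days 2, 5 and 9, 1, 0 and 1 of the 11 were at least 2-fold higher than in callus and 0 lower. In low medium 0 were higher, and 1 was lower on day 5 and 0 on day 9. Over all probe sets, 1.6%, 1.84%, 1.4%, 1.97% and 1.19% were called higher in these 5 comparisons, and 1.64%, 2.4%, 1.71%, 2.4% and 1.57% lower. The medians over these 11 genes ran from -0.22 to -0.14. They were 0.00 over all probe sets and -0.03 to -0.01 over those with a mean above the floor. ICU2 was the only measured gene of the DNA replication list. Its log2 ratios over callus were -0.38, -0.46 and -0.36 in high medium, and -0.45 and -0.12 in low medium. In the list of histones H4 and H1, 3 of 11 loci were measured, all of them H1 genes, so no H4 gene was read here. Those other than HIS1-3 had log2 ratios over callus from -0.22 to 0.30. HIS1-3, a linker histone known to be induced by drought and abscisic acid, read 158 in callus, 337, 170 and 345 in high medium on days 2, 5 and 9, and 180 and 274 in low medium. It was called higher on days 2 and 9 in high medium, by 1.13 on the log2 scale on day 9, and on day 5 both media lay near callus. PFI, the tubulin-folding cofactor E, read 69.9 in callus, 58.2, 40.4 and 35.5 in high medium, and 34.1 and 42.4 in low medium. It was called lower only in low medium on day 5, at -1.04, although its ratios in high medium on days 5 and 9 were -0.79 and -0.98.

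Genes below the 2-fold rule included BUB3.1, of the spindle checkpoint, which read 140 in callus, 84.1, 70.4 and 98.0 in high medium, and 79.4 and 124 in low medium. Its log2 ratio of -0.99 on day 5 in high medium lay just short of 2-fold. SPR1, which shapes cortical microtubules, read 346.5 in callus, 282, 208 and 196 in high medium, and 216 and 256 in low medium. Of the other measured genes of mitosis and cytokinesis, the spindle checkpoint gene BUBR1 lay below the floor on all arrays. KEU, which acts in cell plate fusion, read 157 to 175 in the liquid cultures and 182 in callus. Among 8 genes added once the annotation had been seen, PRL, which encodes the licensing helicase subunit MCM7, read 147 in callus, 103, 88.6 and 80.1 in high medium, and 88.6 and 92.4 in low medium. Its log2 ratios over callus were -0.52, -0.73, -0.88, -0.73 and -0.67 in that order, and it was the only one of the 8 called at 1.5-fold. That made 0, 1 and 1 of 8 lower in high medium and 1 and 1 in low medium, beside 6.15%, 8.28%, 6.6%, 8.04% and 5.76% of all probe sets. The medians over the 8 genes were 0.00, -0.13, -0.02, -0.05 and 0.00. KINESIN-13A, a microtubule motor, had ratios from -0.44 to -0.28, and KINESIN-12B, of the phragmoplast, was near the floor. HON4, a linker histone-like gene, had ratios of 0.32, 0.06, 0.27, 0.25 and 0.32, and PSF2, of the replicative helicase complex, had 0.31, -0.04, 0.01, 0.32 and 0.22. MGH3 and cdc2cAt lay below the floor on all arrays.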

How the data were processed

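Total RNA of 6 cultures was labelled with biotin and read on ATH1 arrays. The deposited intensities hold 1 value for each of 22810 probe sets on a linear scale. Software, background correction and scaling are not given in the sources used here, and equal trimmed means (2% at each end) show a common scaling, which was kept. Values of the 22746 non-control probe sets were raised to a floor (each array's 40th percentile, median of the 6) before log2 ratios were taken. A probe set was called at 2-fold, and described at 1.5-fold.

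Genes were named from the platform annotation (13513 probe sets with 1 gene, 503 with several) and matched to RefSeq assembly TAIR10.1 for names only (13436 matched). Members and lists were chosen with earlier results of these data known, and 8 genes were added after the annotation was seen. In the tracheary element list 1 locus that RefSeq gives to another gene was dropped. By the rule for named genes any member could be named, with values on all arrays for those called, brightest or widest in range in their family; values of the other members were added because there were only 16. List genes were to be named where called at 2-fold. BUB3.1, BUBR1, KEU, SPR1, SIM, POR, ICU2, LBD16, RCA and the added genes were named after their values were seen. The call rule was tested on simulated data. Alternatives were floors at the 20th and 60th percentiles, equal array medians, quantile normalization, 1 probe set per gene, and, added later, genes named by RefSeq synonym. Python 3.11.15 and pandas 2.3.3 were used. No sequence was used here.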

Additional observations from a re-analysis of the deposited data

Results flagged for a closer look

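Genes were flagged here where ratios under the same contrast were opposite and at least 1.2-fold, with values below the floor raised to it. The share of all probe sets passing this rule is not given, so how unusual a flagged gene is cannot be said. No flagged difference was tested. Outside the members, 11 list genes, 8 added genes, 2 callus markers and 1 leaf mesophyll marker were measured. Of the lists and markers 4 genes had such ratios, and 0 members did. Under the lower floor, the 20th percentile, the members CDC27a and TUB1 also did. CDC27a then had a log2 ratio of high over low medium of 0.34 on day 5 and -0.30 on day 9. From day 5 to day 9 TUB1 went from 8.3 to 10.7 in high medium and from 14.4 to 9.0 in low medium. SIM, a cyclin-dependent kinase inhibitor known from endoreduplication, had a log2 ratio over callus on day 9 of 0.32 in high medium and -0.37 in low medium. POR, the tubulin-folding cofactor C, had a log2 ratio of high over low medium of -0.53 on day 5 and 0.33 on day 9, and from day 5 to day 9 it had 0.48 in high and -0.37 in low medium. LBD16, a lateral root and callus gene, had a log2 ratio over callus on day 5 of -0.52 in high medium and 0.32 in low medium. RCA, the Rubisco activase gene, had a log2 ratio of high over low medium of -0.32 on day 5 and 0.39 on day 9.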

How the results depend on the processing

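No paired analysis was possible because each condition has 1 array. The number of arrays and the distance from the floor limit the precision. The count of members called at 2-fold stayed at 0 in all 7 comparisons under every alternative run, except that under the lower floor, the 20th percentile, it was 1 against callus in high medium on day 9 and in low medium on days 5 and 9. That member was TUB5, at log2 ratios of -1.27, -1.04 and -1.16, where the lower floor frees a value held at the main floor. The count at 1.5-fold lower in high medium on day 5 was 4, 5 with the lower floor, 2 with the higher one (60th percentile), 2 with equal medians and 3 with quantile normalization. Under the higher floor it was 1 in high medium on day 9, 1 in low medium on day 5 and 0 in low medium on day 9. Under the lower floor it was 1 in high medium on day 2 and 3 on day 9, 4 and 3 in low medium on days 5 and 9, and 1 between media on day 5. Quantile normalization gave 3 in high medium on day 9. Shares over all probe sets under these alternatives are not given. Of 112 ratios of single members, 20 and 24 moved by over 0.1 with the lower and higher floor, 0 with equal medians and 2 with quantile normalization. Equal medians changed the sign of 3 of them, and both floors and quantile normalization of 0.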

Other observations

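The probe sets of the histone H3.1 and H3.3 genes described here are each annotated to several genes and so fall outside the rule for members. In the annotation used, 5 probe sets are each given to 5 genes that RefSeq names as the replication-coupled histone H3.1. Likewise 3 sets are each given to 3 genes of the replacement histone H3.3. Which of these genes each set reads was not tested, so the sets are not counted as separate genes. All 5 H3.1 sets read lower than in callus in high medium, with median log2 ratios of -0.58, -1.04 and -1.24 on days 2, 5 and 9. The H3.1 medians in low medium were -0.87 on day 5 and -0.85 on day 9. At 2-fold, 1, 3 and 3 of the 5 fell in high medium and 2 and 1 in low medium, where 1.64%, 2.4%, 1.71%, 2.4% and 1.57% of all probe sets were called lower. The H3.1 set with the lowest ratio on day 9 in high medium read 454 in callus, 279, 162 and 158.5 in high medium, and 185 and 243 in low medium. The H3.1 set with the ratio nearest to 0 there, annotated to the same genes, read 179 in callus, 138, 108 and 135 in high medium, and 149 and 181 in low medium. The sets of this class thus differ in size, and whether they read different genes was not tested.

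The 3 H3.3 sets had median log2 ratios over callus of 0.25, 0.16 and 0.16 in high medium and 0.18 and 0.12 in low medium, and 0 of 3 were called. The first of the H3.3 sets by identifier read 1743 to 1884 in the 5 liquid cultures and 1620 in callus. Between high and low medium the H3.1 sets had medians of -0.20 on day 5 and -0.42 on day 9, and 0 of 5 were called on either day. These probe sets were looked at after the members' values were known.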
